A study of Homo sapiens with 9 samples.

Results

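The comparison set 2 ATAC-seq libraries of MDA-MB-231 cells carrying shEZH2 against 2 carrying Control shRNA, out of 9 libraries in the series. Every library of the 4 was included, and their peaks formed 99181 regions, each a stretch covered by overlapping peaks of 1 or more libraries. MDA-MB-231 is an established human triple-negative breast cancer line, and no donor samples were involved. Cells of both groups were transduced with lentivirus for 24 h and then kept in puromycin at 2 μg/ml for 72 h, so the groups share transduction and selection and differ in the hairpin. The hairpins were expressed from a pLKO.1 vector, and all libraries came from a single cell line. The labels number the replicates without saying whether they were separate cultures, so the spread between them may be technical. The other 5 libraries, namely DMSO, GSK126, shSUZ12 and a pair with shE2F1, took no part in the calls and served only to ask where else a region had a peak.

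EZH2 is the methyltransferase of polycomb repressive complex 2 (PRC2), which places trimethylation on lysine 27 of histone H3 at silenced developmental genes such as the HOX clusters. SUZ12 and EED are its core partners, RBBP4 and RBBP7 bind histones, and JARID2, AEBP2, MTF2, PHF1, PHF19 and EPOP are accessory subunits that help to place the complex. EZH1 is the second methyltransferase of the family. In ATAC-seq the Tn5 transposase cuts and tags DNA that is not wrapped tightly in nucleosomes, so that a peak marks an accessible promoter, enhancer or insulator. Active enhancers in breast cancer cells of mesenchymal character often carry sites for AP-1 and TEAD, and insulators carry sites for CTCF.

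A region was called lost when both Control shRNA lists and neither shEZH2 list had a peak in it, and gained when the reverse held. With shEZH2, 7140 regions (7.20% of 99181) were lost and 882 (0.889%) were gained, while 47105 (47.5%) had a peak in all 4 lists. Another 11055 regions were in both Control shRNA lists and a single shEZH2 list, and 2020 were in both shEZH2 lists and a single Control shRNA list. The balance between losses and gains moved with list length. The deposited lists held 78600 and 81743 peaks for Control shRNA and 72202 and 58626 for shEZH2. When each list was limited to its 58626 peaks with the highest −log10 p, 2900 of 74811 regions (3.88%) were lost and 2004 (2.68%) were gained. Of the regions lost in the lists as deposited, 1989 were also lost in lists of equal length (27.9% of the former and 68.6% of the latter). The corresponding number of gained regions was 568 (64.4% and 28.3%).

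The second shEZH2 library had the shortest list and the lowest recovered background of the 4, while read totals were not analysed. Whole tags recovered from fold enrichment and −log10 p gave a most frequent background of 1.79 and 2.08 tags per summit in the Control shRNA libraries, and of 1.95 and 1.41 in the shEZH2 libraries. Without the second shEZH2 library, 9282 regions were lost and 6806 were gained, against 7140 and 882 with it. Without the first shEZH2 library the counts were 16150 and 2619. Leaving out the first or the second Control shRNA library gave 17610 or 15140 lost and 1738 or 2112 gained regions. The part of depth in the calls was not tested. With 2 libraries against 2, an exact permutation test cannot give a two-sided p below 0.333, so no region was tested and the values below are descriptions. Intervals on shares are 95% Wilson intervals, which cover counting error only.

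Sequences of 101 bases around the summit are shown for 3 lost and 5 gained regions, chosen to show AP-1, TEAD and CTCF matches, the strongest gained region and the gained region closest to JARID2. They are the plus strand of GRCh38, and each is named for the gene with the nearest start. Capitals mark matches to the searched motifs on either strand: TGANTCA for AP-1, GGAATG for TEAD, TGTGGT for RUNX, TTTNNCGC for E2F, CCGGAA for ETS and TAATTA for homeobox proteins, beside one longer motif each for CTCF and NRF1. The first 3 were lost: the intergenic region near SLC38A11 (chr2:165055174-165055274, AP-1), the RANBP6 promoter (chr9:6014826-6014926, a pair of AP-1 matches) and the CSRNP3 promoter (chr2:165469571-165469671, CTCF).
SLC38A11: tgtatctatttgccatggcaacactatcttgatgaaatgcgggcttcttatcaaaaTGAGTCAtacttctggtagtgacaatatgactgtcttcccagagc
RANBP6: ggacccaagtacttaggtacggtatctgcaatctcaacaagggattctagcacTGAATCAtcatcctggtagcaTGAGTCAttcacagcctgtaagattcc
CSRNP3: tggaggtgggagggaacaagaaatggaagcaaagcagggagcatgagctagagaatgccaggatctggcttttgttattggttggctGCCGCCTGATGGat
The next 5 were gained: an intron of CCDC85A (chr2:56288079-56288179, homeobox), an intergenic region near CWH43 (chr4:48954917-48955017, TEAD), the KRTAP4-2 promoter (chr17:41178517-41178617, AP-1), the AKR1B15 promoter (chr7:134549035-134549135, where AP-1, TEAD and ETS matches overlap in a single run) and the region upstream of JARID2 (chr6:15228612-15228712, TEAD).
CCDC85A: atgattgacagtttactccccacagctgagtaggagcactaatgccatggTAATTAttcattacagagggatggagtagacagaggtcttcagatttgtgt
CWH43: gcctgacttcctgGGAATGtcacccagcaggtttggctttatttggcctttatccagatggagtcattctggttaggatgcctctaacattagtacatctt
KRTAP4-2: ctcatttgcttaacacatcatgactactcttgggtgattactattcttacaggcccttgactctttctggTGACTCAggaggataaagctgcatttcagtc
AKR1B15: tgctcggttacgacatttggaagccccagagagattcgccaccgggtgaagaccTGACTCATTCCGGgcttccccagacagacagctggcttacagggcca
JARID2: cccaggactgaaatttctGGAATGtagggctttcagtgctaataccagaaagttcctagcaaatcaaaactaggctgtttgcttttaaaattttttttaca

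Lost and gained regions were mostly weak, narrow peaks. Within each list, peaks were ranked by fold enrichment, which sets the tags at a summit against those expected from its surroundings, and given a percentile from lowest to highest. In the weaker of the 2 lists that held them, lost regions had a median percentile of 21.7 and gained regions of 21.5, against 62.7 in the weaker Control shRNA list and 53.4 in the weaker shEZH2 list for regions in all 4 lists. The median width was 327 bp for lost and 313 bp for gained regions, and 725 bp for regions in all 4 lists, whose merged width also reflects the number of peaks joined. The median −log10 q of the weaker peak was 7.83 (range 2.05 to 40.5) for lost and 7.06 (2.53 to 25.1) for gained regions. Only 598 lost regions (8.38%) and 94 gained regions (10.7%) lay above the 50th percentile in both of their lists. Above the 80th percentile there were 15 lost and 2 gained regions.

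The share of regions called was lower at higher ranks. Of the regions in both Control shRNA lists, 32.8% were lost up to the 10th percentile, 9.18% between the 40th and 50th and 0.0518% (3 of 5789) above the 90th. Of the regions in both shEZH2 lists, 5.13% were gained up to the 10th percentile, 1.40% between the 40th and 50th and 0 of 4249 above the 90th. Up to the 10th percentile of lists of equal length, 14.0% of regions were lost. The peaks with the highest fold enrichment in either group were thus nearly always present in the other.

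**Figure D1:**
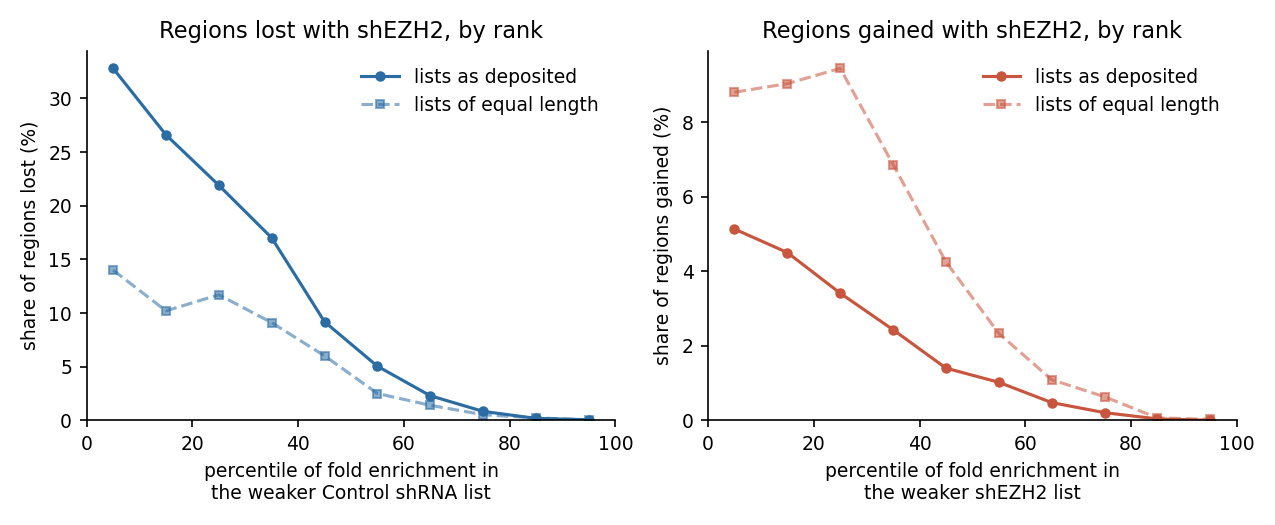
Share of regions lost (left, of regions in both Control shRNA lists) or gained (right, of regions in both shEZH2 lists) in percent, plotted against the percentile of fold enrichment in the weaker of the 2 lists. Solid lines are lists as deposited and dashed lines are lists of equal length; in the lists as deposited the lost share falls from 32.8% to 0.0518% and the gained share from 5.13% to 0.

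Lost and gained regions lay away from promoters, and in lists as deposited gained regions lay farthest. A promoter was taken as 1 kb on either side of the start of the canonical transcript of 20033 protein-coding genes. The median distance to the nearest start was 35.6 kb for lost, 58.3 kb for gained and 22.3 kb for regions in all 4 lists. Starts were over 100 kb away for 23.0% of lost, 34.0% of gained and 18.5% of regions in all 4 lists. Promoters held 361 lost regions (5.06%, interval 4.57 to 5.59) and 24 gained regions (2.72%, 1.84 to 4.02), against 24.3% of regions in all 4 lists. Regions that were not called could also lie mostly outside promoters. Of 17693 regions in a single Control shRNA list alone, 16725 lay outside them, as did 7197 of 7581 in a single shEZH2 list alone. A low promoter share was therefore not particular to lost and gained regions. The lost and gained shares lay closer in lists of equal length (4.86% and 4.34%) and without the second shEZH2 library (5.32% and 5.10%). With windows of 250 bp around summits in place of whole peaks, the promoter share of gained regions was 16.2%. Intergenic DNA held 48.5% of lost, 55.6% of gained and 41.8% of regions in all 4 lists, and introns held 40.3%, 36.8% and 28.2%. A lost promoter region was found for 380 genes (1.90% of 20033) and a gained one for 24 genes (0.120%), since neighbouring genes can share a region.

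**Figure D2:**
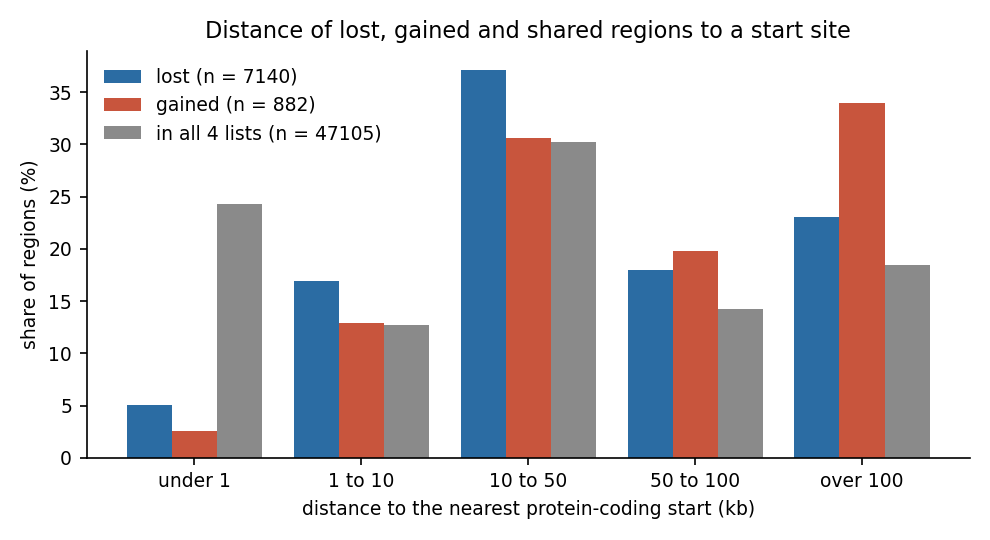
Share of lost, gained and shared regions (in percent of each class) by distance in kb to the nearest protein-coding start, in the lists as deposited. Gained regions have the largest share beyond 100 kb (34.0%), and regions in all 4 lists have the largest share under 1 kb (24.3%).

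The strongest regions called in both kinds of lists lay in intergenic DNA or introns. Near SLC38A11, which encodes an amino acid transporter, the lost region (chr2:165055038-165055446) had fold enrichments of 14.9 and 15.9 in the Control shRNA libraries and no peak with shEZH2. An intergenic region (chr6:135586806-135587229) 89.1 kb from the start of AHI1, a gene of ciliary function, had 13.3 and 13.9. A region in an intron of EXOC6B (chr2:72367752-72368185), with CYP26B1 as the nearest start at 220 kb, had 12.5 and 15.3. Each of these 3 regions had a peak in all 5 libraries outside the comparison, so a peak was missing only in the shEZH2 libraries. Regions in introns of PLCZ1, the phospholipase of sperm, with 17.1 and 12.7, and of SYT17, with 15.1 and 12.7, had a peak in 3 of the other 5 libraries.

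Lost promoter regions were weaker. The region at the promoter of CALCRL (chr2:187448147-187448602), the receptor subunit for calcitonin gene-related peptide and adrenomedullin, had fold enrichments of 9.68 and 9.29 in the Control shRNA libraries, at percentiles 73.5 and 67.2. The region at SPINK4, a secreted protease inhibitor, had 7.86 and 8.45. Those at CNBD2 and RANBP6 had 10.4 and 7.47, and 7.53 and 7.15. Both shEZH2 lists lacked a peak at all of these, and every named lost promoter, MARCHF10, IQCF5 and CSRNP3 included, had a peak in at least 2 of the other 5 libraries.

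By its rank in the weaker list, the strongest gained region called in both kinds of lists was one in an intron of CCDC85A (chr2:56287956-56288367), with fold enrichments of 12.5 and 11.8 in the shEZH2 libraries. An intergenic region (chr4:23680411-23681111) 209 kb from the start of PPARGC1A, a coactivator of mitochondrial genes, had 11.1 and 11.2. An intergenic region (chr2:150063334-150063684) 424 kb from RND3, a regulator of the actin cytoskeleton, had 13.5 and 9.98, and a region in an intron of AGO3, nearest to TEKT2, had 9.84 and 10.9. Neither Control shRNA list had a peak at any of the 4. The DMSO list had a peak at the regions near RND3 and TEKT2 and none at those near CCDC85A and PPARGC1A. Gained promoter regions were weak. Of the 9 called in both kinds of lists, that of KRTAP4-2, a hair keratin-associated protein, had 7.05 and 7.90, and the next, that of U2SURP, had 4.64 and 5.12. At FADS6, with 5.36 and 4.17, no other library had a peak.

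Presence in the libraries that took no part in the calls differed between lost and gained regions. The DMSO list, from cells for which the labels give no hairpin, had a peak in 60.5% of lost regions (interval 59.4 to 61.6) and in 28.6% of gained regions (25.7 to 31.6), against 97.6% of regions in all 4 lists. In the list of cells treated with GSK126, an inhibitor of the methyltransferase activity of EZH2, the shares were 47.4% and 25.9%. The second shE2F1 list, the longest of the series, had a peak in 63.9% of lost and 52.4% of gained regions. No other library had a peak in 10.7% of lost and 26.3% of gained regions. The DMSO shares were 81.4% and 55.6% in lists of equal length. When a Control shRNA library was left out the order turned, with 39.6% of lost against 44.5% of gained regions without the first and 40.1% against 49.8% without the second; without the first or the second shEZH2 library the shares were 72.1% and 18.7%, or 65.0% and 16.2%. The DMSO share of lost regions was higher at higher rank, from 50.2% up to the 10th percentile to 79.8% between the 50th and 60th, whereas that of gained regions was 25.4% up to the 10th percentile and 32.7% at the same step. These 5 libraries differ in list length as well as treatment, and the 2 cannot be told apart.

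**Figure D3:**
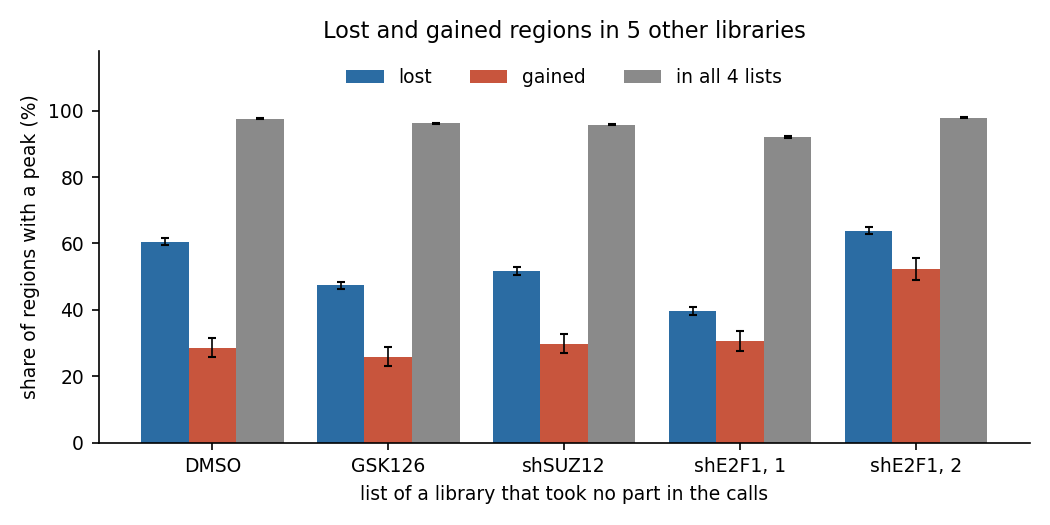
Share of lost, gained and shared regions (in percent) that had a peak in each of 5 libraries outside the comparison; bars start at 0 and error bars are 95% Wilson intervals. In every list the lost regions lie above the gained regions, with the widest gap in the DMSO list (60.5% against 28.6%).

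Sequence around the summit differed between lost and gained regions outside promoters. A window of 201 bases on the summit of the strongest peak was searched for 6779 lost, 858 gained and 35635 shared regions. TEAD matches were found in 16.2% of lost (15.4 to 17.1), 25.6% of gained (22.8 to 28.7) and 20.9% of shared regions, and in 18.5% of all 84634 regions outside promoters. AP-1 matches were found in 33.9% of lost, 43.7% of gained, 44.7% of shared and 36.3% of all regions. CTCF matches ran the other way, with 8.81% of lost (8.16 to 9.50), 2.91% of gained (1.98 to 4.27), 7.99% of shared and 7.77% of all regions. RUNX matches were found in 20.9%, 21.3% and 21.8%, with overlapping intervals for lost and gained regions. ETS matches were found in 3.10% of lost, 1.17% of gained and 4.83% of shared regions, homeobox matches in 2.46%, 3.15% and 1.92%, E2F matches in 1.43%, 1.52% and 1.78%, and NRF1 matches in 0.0885%, 0 and 0.536%. The shares for lost and gained regions in lists of equal length were 17.6% and 25.1% for TEAD, 37.3% and 42.9% for AP-1, and 10.6% and 3.86% for CTCF. A match is a stretch of letters, not a bound site, and TEAD and ETS matches can share bases.

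Base composition moved with these classes. Median GC content of the window was 49.8% in lost, 44.8% in gained and 50.7% in shared regions outside promoters. Within steps of GC content, TEAD matches were found in 15.5% of lost and 29.8% of gained regions under 40% GC, in 18.6% and 28.5% between 40% and 45%, and in 19.0% and 25.3% between 45% and 50%. The intervals overlapped in the last of these steps, and also between 50% and 55% (15.4% and 18.4%) and at 55% or more (13.7% and 19.3%). Shared regions had 23.7%, 25.8% and 24.8% in the 3 steps below 50% GC, within the intervals of the gained regions, and 22.2% and 14.1% above. AP-1 intervals of lost and gained regions overlapped in every step, and the gained share was below the shared one in each. The lost, gained and shared AP-1 shares were 43.7%, 50.9% and 58.5% under 40% GC, and 20.2%, 21.6% and 29.3% at 55% or more. Gained and shared AP-1 intervals were apart only between 40% and 45% GC (39.1 to 51.1 and 55.6 to 58.1). Rank was not matched in these steps. By rank in the weaker shEZH2 list, the gained AP-1 share was above the shared one up to the 20th percentile (38.4% and 35.1%). It was also above between the 20th and 40th (48.3% and 39.1%) and the 40th and 60th (49.2% and 43.7%). Above the 60th it was below (43.6% and 52.6%). Intervals were apart only between the 20th and 40th, and GC content was not matched in the steps of rank. CTCF matches were found in 9.89% of lost and 0.585% of gained regions under 40% GC, in 9.60% and 2.69% between 40% and 45%, and in 8.48% and 7.95% at 55% or more. Shared regions went from 3.25% to 12.9% over the same steps, so the lost share was above the shared one at low GC and below it at high GC. By rank, CTCF matches were found in 5.55% of lost regions up to the 20th percentile of the weaker Control shRNA list, where shared regions had 5.47%. Between the 40th and 60th percentile the shares were 11.9% (10.1 to 14.1) and 9.04% (8.45 to 9.67).

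**Figure D4:**
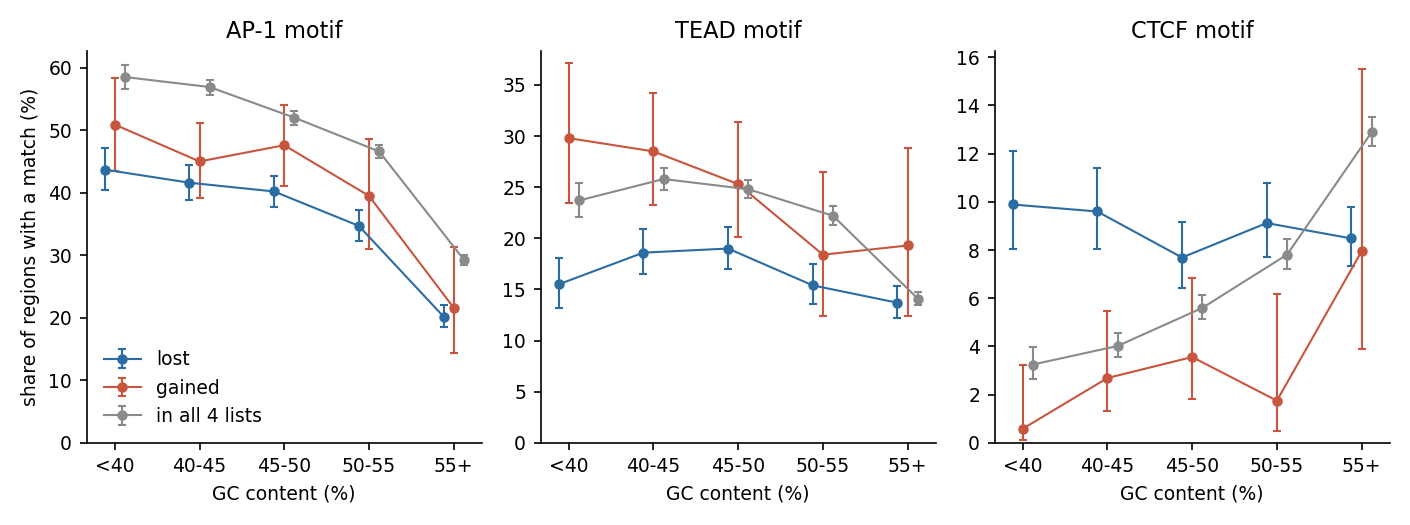
Share of lost, gained and shared regions outside promoters with an AP-1, TEAD or CTCF match within the 201-base window (in percent), by GC content of the window in percent; error bars are 95% Wilson intervals. TEAD shares of gained regions lie above those of lost regions in each step below 50% GC, and CTCF shares of gained regions lie below those of lost regions in each step below 55% GC.

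Losses were spread over the chromosomes and gains less evenly. Of the regions in both Control shRNA lists, 10.9% were lost genome-wide, with a range over chromosomes 1 to 22 and X from 9.71% on chromosome 19 to 12.6% on chromosome 22. Of the regions in both shEZH2 lists, 1.76% were gained genome-wide, from 0.718% (11 of 1531) on chromosome 20 and 0.719% on chromosome 19 to 2.73% (60 of 2197) on chromosome 4 and 2.68% on chromosome 5. The gained share in lists of equal length was 6.83% on chromosome 4 and 2.33% on chromosome 19. Another lost region lay within 100 kb of 59.7% of lost regions, and another gained region within 100 kb of 13.4% of gained regions. These shares were 34.1% and 21.8% in lists of equal length, where the counts are closer, and 66.3% and 51.8% without the second shEZH2 library. Without any one of the other libraries the gained share was 20.2% to 25.8%. Of the far more numerous regions in all 4 lists, 96.6% had another within 100 kb.

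Called regions seldom formed unbroken runs. A lost run was a series of lost regions that were neighbours among the regions in both Control shRNA lists. A gained run was the same for gained regions among those in both shEZH2 lists. Regions outside these sets were passed over and may lie within a run. Of the lost runs, 5564 held a single region, 647 held 2, 86 held 3 and 6 held 4. The run with the highest ranks spanned 43.7 kb between RTTN and SOCS6, a suppressor of cytokine signalling, on chromosome 18, with a median percentile of 63.1, and its 4 regions all had a peak in the DMSO and GSK126 lists. A run of 4 over 126 kb lay between PRB2 and ETV6, an ETS family repressor, on chromosome 12, and another over 62.0 kb lay at the serpin genes SERPINA11 and SERPINA9 on chromosome 14. The 2 longest gained runs held 3 regions. That in DGKI, a diacylglycerol kinase, spanned 33.9 kb at a median percentile of 12.3, and none of its regions had a peak in the DMSO or GSK126 list. The other, at XYLT1 and the NPIPA genes of chromosome 16, spanned 2020 kb with no other region in both shEZH2 lists between. NPIPA genes are near-identical copies, and reads there cannot be placed with certainty. A gained pair 30.4 kb long lay near KLF5, an epithelial transcription factor, at a median percentile of 61.5.

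Several lost regions around a gene were common, and several gained regions were rare. Of 20033 protein-coding genes, 52.0% had at least 1 lost region within 100 kb of the start and 7.97% (1597) had 3 or more. At least 1 gained region was found for 7.18%, and 3 or more for a single gene, JARID2 (0.00499%). In lists of equal length the shares were 29.5% and 1.25% (251 genes) for lost and 15.4% and 0.0948% (19 genes) for gained regions. JARID2 was not among those 19, with 1 gained region in lists of equal length. Leaving out libraries moved the lower counts widely: without the second shEZH2 library, 2503 genes had 3 or more lost and 920 had 3 or more gained regions, and without the first the counts were 6490 and 87. Without the first or the second Control shRNA library they were 6775 and 12, or 6136 and 45.

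FCHO1, an adaptor of clathrin endocytosis on chromosome 19, had the most lost regions of any gene, 9 of the 19 regions in both Control shRNA lists within 100 kb. The window also holds the starts of UNC13A, which primes synaptic vesicles, and JAK3, a kinase of cytokine receptors. The lost region 5.82 kb downstream of the FCHO1 start, in an intron, had fold enrichments of 6.13 and 9.83 in the Control shRNA libraries, and those 79.4 kb and 96.3 kb upstream had 8.67 and 7.63, and 6.17 and 10.0. These 3 had a peak in all 5 other libraries and were the ones also lost in lists of equal length. The other 6 had lower fold enrichments, from 3.45 to 7.02.

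TMEM88B on chromosome 1 had 8 lost regions of 18, in a gene-dense window with DVL1, a Wnt pathway adaptor. Their percentiles in the weaker list were 1.23 to 8.40, and none was lost in lists of equal length. AVIL, which encodes the actin-binding protein advillin, had 7 of 20 in a window with CDK4, the kinase of G1 phase, and all 7 had a DMSO peak. ENSG00000258989 on chromosome 14, with no other protein-coding start in its window, had 7 of 32. In lists of equal length 5 regions were lost there, not all of them among the 7. Of the 7, only those 84.6 kb, 72.3 kb and 52.2 kb upstream were lost in both kinds of lists. CTDSPL, a phosphatase, had 6 of 12, with fold enrichments of 9.35 and 8.48 in the intron 47.7 kb downstream of its start and of 7.06 and 9.04 at 82.1 kb upstream. TMEM33 had 6 of 11, and FAM174C had 7 of 31.

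JARID2, the PRC2 accessory subunit, had 3 gained and 3 lost regions within 100 kb. The gained regions lay 17.4 kb upstream and 28.9 kb and 38.9 kb downstream of the start, the last pair in introns. Their fold enrichments were 4.49 and 4.37, 4.05 and 3.51, and 4.47 and 3.59 in the shEZH2 libraries, all at low ranks, and only the last was also gained in lists of equal length. None had a peak in the DMSO or GSK126 list. The lost region 95.5 kb downstream was stronger, with fold enrichments of 11.7 and 11.0 in the Control shRNA libraries, and had a peak in all 5 other libraries. The 2 other lost regions had 4.17 and 5.37, and 5.46 and 4.49.

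The other genes named for gained regions had 2 each. Both regions upstream of UGT2B7, a glucuronosyltransferase, at 4.10 kb and 41.5 kb, were gained in both kinds of lists, with fold enrichments of 6.45 and 6.65, and 8.78 and 5.82. Both regions 34.0 kb and 34.8 kb upstream of TRPC6, a cation channel, were gained in both kinds of lists as well, and neither had a DMSO or GSK126 peak. FN1, which encodes fibronectin, had a gained region in an exon 26.1 kb downstream of its start, with 6.45 and 5.69, and another 24.8 kb upstream, with 7.13 and 5.40. SETD2, the methyltransferase of lysine 36 of histone H3, had a stronger gained region in an intron, with 7.81 and 9.64, beside a weaker one with 3.73 and 5.04. LYSMD3 and C11orf65 had 2 each, and so did MAGEA2, a cancer-testis antigen gene whose near-identical copies make its regions uncertain.

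Among regions in all 4 lists, ranks of the groups separated both ways. In lists of equal length, 17.8% of 41592 regions had a lower percentile of fold enrichment in both shEZH2 lists than in either Control shRNA list, and 22.7% had a higher one. The order of these shares turned with the measure and the lists: by −log10 p they were 21.8% and 19.7%, and by fold enrichment in lists as deposited 31.6% and 11.6%. If the 4 values of a region were exchangeable, the groups would separate in either direction with probability 0.333. This is the limit of the two-sided permutation test given above, and it splits evenly between lower and higher. Separated ranks therefore need no difference between the groups, and the shares were not tested against that level. Shifts of over 20 percentile points between the nearest values of the groups were found for 731 lower and 761 higher regions. The widest shift to lower rank was in an intergenic region (chr9:80994947-80995611) 694 kb from TLE1, a corepressor, with percentiles of 83.1 and 82.7 for Control shRNA and 22.1 and 23.3 for shEZH2, and fold enrichments of 12.2 and 13.0 against 5.77 and 5.28. A region in an exon of NEK8, a ciliary kinase, had 14.0 and 15.5 against 6.73 and 4.44, and an intron of ACVR1B, an activin receptor, had 12.8 and 13.1 against 6.07 and 4.22.

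The widest shift to higher rank lay 111 kb from RPS23, a ribosomal protein gene (chr5:82388881-82389630), with percentiles of 20.9 and 18.8 for Control shRNA and 80.2 and 82.1 for shEZH2. An intron of NFIA (chr1:61286687-61287576), a transcription factor of glial and other lineages, had fold enrichments of 5.64 and 6.44 in the Control shRNA libraries and 10.3 and 11.3 with shEZH2. A region 31.1 kb from SERPINB1, an inhibitor of neutrophil proteases, had 5.88 and 6.69 against 10.5 and 11.0. An intron of VPS41 had 6.45 and 6.82 against 12.4 and 9.84. In each of these regions the groups did not overlap, which is how they were chosen.

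No promoter of the 12 PRC2 genes was lost or gained, and all 12 had a promoter peak in all 4 lists. Of all 20033 genes only 1.90% had a lost and 0.120% a gained promoter region, so a count of 0 is near the share of all genes. A promoter peak in all 4 lists of equal length was found for 11979 of the 20033. The knockdown itself cannot be checked here, since a hairpin acts on the RNA and the EZH2 promoter peak need not follow it. That peak was at percentiles 72.1 and 81.3 in the Control shRNA libraries and 82.1 and 88.9 in the shEZH2 libraries, in lists of equal length. A gene was counted as higher or lower in rank when its promoter peak did not overlap between the groups by fold enrichment and by −log10 p alike. Over 11979 genes with a promoter peak in all 4 lists of equal length, 10.6% were higher and 12.5% lower with shEZH2. Of the PRC2 genes 4 were higher and 0 lower. EED was at percentiles 56.4 and 52.9 with Control shRNA and 72.5 and 74.5 with shEZH2, and JARID2 at 44.6 and 17.0 against 55.2 and 62.9. AEBP2 was at 61.9 and 68.3 against 80.2 and 77.7, and SUZ12 at 82.1 and 86.0 against 89.7 and 86.5. By fold enrichment alone EZH2 and PHF1 were also higher and EZH1 was lower. The measures differed in direction over all 11979 genes: by fold enrichment alone, 24.1% were higher and 14.3% lower, and by −log10 p alone 12.3% and 24.7%.

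**Figure D5:**
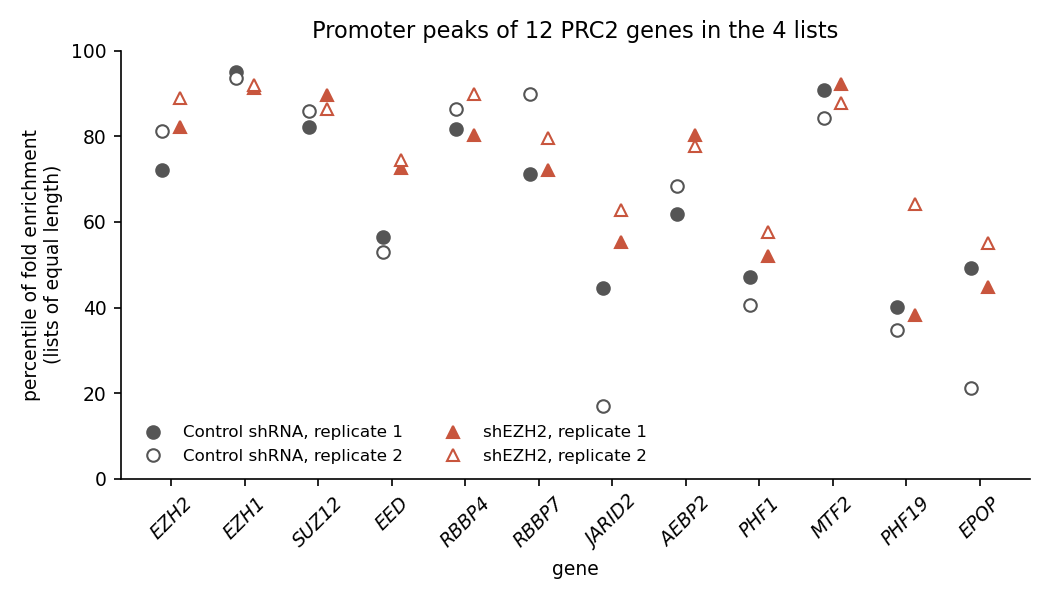
Percentile of fold enrichment of the strongest promoter peak of 12 PRC2 genes in lists of equal length, with circles for the 2 Control shRNA and triangles for the 2 shEZH2 libraries. The shEZH2 points lie above both Control shRNA points for EZH2, SUZ12, EED, JARID2, AEBP2 and PHF1 and below them for EZH1; by −log10 p, EZH2, PHF1 and EZH1 did not separate.

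HOX genes, the classical targets of PRC2, mostly had no promoter peak in any of the 4 lists (32 of 39), and none was lost or gained at its promoter. Among all genes 1.90% had a lost and 0.120% a gained promoter region. In lists of equal length 6 of the 39 had a promoter peak in all 4, against 11979 of 20033 genes. At least 1 lost region lay within 100 kb of 35 of the 39 (89.7%, against 52.0% of all genes), but HOX genes stand in clusters and share these regions, and in lists of equal length the number was 9 of 39, where 29.5% of all genes had one, so the order turned. No HOX gene had a gained region within 100 kb in the lists as deposited, and 8 had in lists of equal length, where 15.4% of all genes had one. The promoter peak of HOXB5 was lower by both measures, at percentiles 65.7 and 57.3 against 29.4 and 27.7. Of 73 other developmental transcription factor genes, 47 had no promoter peak, 1 (BARHL1) had a lost promoter region and none a gained one. A gained region lay within 100 kb of 7 (9.59%, against 7.18% of all genes), among them SOX2, EN1 and TWIST1. SIX2 was lower by both measures (69.6 and 65.5 against 62.3 and 61.8) and MSX2 higher (60.5 and 57.4 against 69.2 and 74.8).

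Promoters of 55 cell cycle genes were accessible nearly throughout, with a peak in all 4 lists for 54 and no lost or gained promoter region. The shares of all genes with a lost or gained promoter region were 1.90% and 0.120%. In lists of equal length 54 of the 55 and 11979 of 20033 genes had a promoter peak in all 4. By both measures 8 of these 54 were higher and 6 lower in rank. Over all 11979 genes with a promoter peak in all 4 lists of equal length, the shares were 10.6% and 12.5%. PLK1, a mitotic kinase, was at percentiles 37.6 and 42.3 with Control shRNA and 78.0 and 82.6 with shEZH2. E2F5 was at 33.0 and 32.7 against 77.5 and 72.7, and CDC20 at 70.6 and 70.8 against 87.9 and 90.3. CCNA2, the cyclin of S and G2 phase, was at 73.3 and 83.0 against 92.7 and 93.8. CCNB1 overlapped between the groups by both measures (94.0 and 97.6 against 99.1 and 97.2). RRM2 was higher by fold enrichment alone (22.3 and 23.7 against 36.3 and 41.5). MCM6, a helicase subunit, was at 87.6 and 86.8 against 94.2 and 96.6. GINS1, of the replicative helicase complex, was at 96.0 and 95.6 against 84.8 and 76.1, and BRCA1, a DNA repair gene, at 89.0 and 87.6 against 81.7 and 77.4. Lost regions lay within 100 kb of 52.7% of these genes and gained regions of 9.09%, near the shares of all genes.

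Of 16 AP-1 genes, 13 had a promoter peak in all 4 lists and none was lost or gained, where 1.90% and 0.120% of all genes were. FOS, JUNB, BATF3 and MAFF were higher by both measures and MAFG was lower. FOS was at percentiles 4.84 and 8.41 with Control shRNA and 23.6 and 34.5 with shEZH2. Of 26 target genes of YAP and TEAD, 25 had a promoter peak in all 4 lists, and by both measures 5 were higher and 3 lower. For the AP-1 list and this one, the shares over all 11979 genes with such a peak were 10.6% higher and 12.5% lower. YAP1 itself was at 29.4 and 25.8 against 58.4 and 52.4, and IGFBP3, which binds insulin-like growth factors, at 7.62 and 7.09 against 31.2 and 26.1. CCN2, a matricellular protein, was lower, at 14.1 and 38.2 against 8.32 and 6.81, as was NUAK2, a kinase, at 26.9 and 31.2 against 11.6 and 18.3. AXL, a receptor tyrosine kinase, was at 8.89 and 7.26 against 0.152 and 2.56. Within 100 kb of its start 6 of the 19 regions in both Control shRNA lists were lost, and 1 region was lost in lists of equal length. A lost region was called at the promoter of ASAP1 although its main promoter peak was present in all 4 lists.

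Of 28 genes of invasion proteases and their inhibitors, 13 had a promoter peak in all 4 lists and 8 in none, and 3 (MMP9, ADAM8 and CTSB) had a lost promoter region, against 1.90% of all genes. MMP9, a gelatinase, had promoter peaks in both Control shRNA lists, in neither shEZH2 list and in 1 of the other 5, at percentiles 6.82 and 18.9 of the lists as deposited, whereas ADAM8 and CTSB kept another promoter peak in the first shEZH2 list. In lists of equal length MMP9 and CTSB had no promoter peak in any list. ADAM8 had one there only in the first Control shRNA list, at percentile 1.14, so none of the 3 was lost at its promoter. By both measures 3 of the 13 were higher, ADAM17 and PLAT among them, and 1 was lower, MMP19 (54.6 and 62.5 against 23.1 and 46.8). Over all 11979 genes with such a peak, 10.6% were higher and 12.5% lower. The identity of the cells was checked with marker promoters. Of 10 mesenchymal markers 8 had a promoter peak in all 4 lists, and by both measures VIM and MSN were higher and AXL was lower. VIM, which encodes vimentin, was at percentiles 10.0 and 15.7 with Control shRNA and 51.1 and 53.8 with shEZH2, and MSN, which encodes moesin, at 32.2 and 30.1 against 45.1 and 47.9. By −log10 p alone CD44, CAV1 and FN1 were lower as well. Of 12 luminal markers 8 had a promoter peak in all 4 lists as well, GATA3 had none, and PGR had a lost promoter region beside another promoter peak in the second shEZH2 list. FOXA1 and CDH1 ranked low in the lists as deposited, between percentiles 3.66 and 16.6, and TFF1 and XBP1 ranked between 77.5 and 95.6. A promoter peak does not show that the gene is expressed. Of the markers of other cell types, PTPRC, CD3E, PECAM1 and MYOD1 had no promoter peak in any of the 4 lists, and the epithelial EPCAM had it in all 4.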

How the data were processed

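ATAC-seq was performed on MDA-MB-231 cells. The authors aligned reads to the human genome with Bowtie2 (keeping up to 4 alignments per read; GRCh38 per the labels), shifted them by 4 or 5 bp for the Tn5 cut, and called peaks per library. The ATAC peak caller is not given in the sources used here. The deposited lists give each peak's fold enrichment (a ratio to local background) and, as deposited, the −log10 of its p-value and q-value; the lowest −log10 q was near 2 in every list. Read totals per library were not analysed here, so precision was judged from recovered tags and list lengths.

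Peaks of the 4 libraries were merged at an overlap of 1 bp. Genes, starts and exons came from GENCODE v44 and sequences from GRCh38; the coordinates fit within its chromosomes. Named items were the 8 lost and 8 gained regions (any position, and at promoters), among those called in both kinds of lists, with the highest percentile in their weaker list, the 8 genes of each kind with most regions within 100 kb, the 5 longest runs, the 5 largest rank shifts each way, and 10 gene lists; a selection of them is described. Members and lists were chosen with earlier results of these data known, and the motif shares in lists of equal length and the joint use of both rank measures were added after the values were seen. The alternatives were lists of equal length, a −log10 q of at least 5, a larger overlap, summit windows, other promoter, distance and rank definitions, and leaving out each library. The calling code was run on simulated lists with planted regions either fully present or fully absent in a group. That run checks the code only and does not bear on false calls from weak peaks or unequal lists. Python 3.11.15, numpy 2.4.6, pandas 2.3.3, scipy 1.17.1 and matplotlib 3.10.9 were used.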

Additional observations from a re-analysis of the deposited data

How the results depend on the processing

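No paired analysis was possible because the calls come from the presence of peaks and from no test. The order of the promoter, DMSO, TEAD, AP-1 and CTCF shares of lost against gained regions held in lists of equal length; that of the promoter shares turned with summit windows, and that of the DMSO shares turned without either Control shRNA library. In lists of equal length there were 2900 lost and 2004 gained regions, promoter shares of 4.86% and 4.34%, 251 and 19 genes with 3 or more regions, neighbours within 100 kb for 34.1% and 21.8%, and DMSO peaks in 81.4% and 55.6%. With a −log10 q of at least 5, 0 genes had 3 or more gained regions, neighbours were found for 58.5% of lost regions, and DMSO peaks for 65.3% and 32.8%. With summit windows, promoter shares were 6.18% and 16.2%, 6 genes had 3 or more gained regions, 15.8% of gained regions had a neighbour and 49.9% a DMSO peak. An overlap of at least 50% of the shorter peak moved none of the 12 main results. With promoters of 500 bp either side, 3.15% of lost regions were at one. Counting 2 or more regions gave 4494 genes for lost and 60 for gained, and neighbours within 25 kb were found for 23.4% and 3.29%. By −log10 p in lists of equal length, 21.8% of shared regions were lower and 19.7% higher. By fold enrichment in lists as deposited, the shares were 31.6% and 11.6%. The cause of these shifts was not tested.

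Leaving out each library in turn gave 9282 to 17610 lost and 1738 to 6806 gained regions, promoter shares of 5.17% to 7.03% and 3.67% to 5.10%, 2503 to 6775 and 12 to 920 genes with 3 or more regions, neighbour shares of 66.3% to 82.5% and 20.2% to 51.8%, DMSO shares of 39.6% to 72.1% and 16.2% to 49.8%, and 29.7% to 36.6% of regions lower and 35.5% to 42.9% higher in rank. Without either Control shRNA library a region needed a peak in a single one to be lost, and likewise for shEZH2 and gained regions, which raises the counts. Weak peaks near the calling limit and the short list of the second shEZH2 library limit what an absent peak shows.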
